A study of Daphnia magna with 22 samples.

Results

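The ketone body beta-hydroxybutyrate (BHB) was tested in the IL clone of the water flea Daphnia magna by RNA sequencing of single adult females. The 6 libraries described here are the 3 IL females bathed in BHB and the 3 IL full-diet controls, of 22 libraries in the series, and they were taken by the clone and treatment letters of their titles. IL is a parthenogenetic isolate from a Jerusalem pond that dries out in summer, and the other clone of the study, GB, comes from a permanent London lake. BHB females received 400000 algal cells per mL each day and a daily 2 h bath with 2.5 mM BHB, and control females received the same food and the same handling in plain medium. Libraries of 3 IL females on caloric restriction (CR, 100000 cells per mL, plain baths) and of 2 IL females bathed in 0.1 mM nicotinamide mononucleotide (NMN) on the full diet entered the same fit. Per the deposited design text, all animals were kept at 20 °C in tubes of 5 and descended from 3 stock females per clone. Females were taken at an age of 75 ± 2 days, soon after laying and with the new eggs removed, when about 10% of the CR cohort and 20% of the full-diet control cohort had died, so the libraries come from survivors. Each group is 1 clonal genotype, so the values describe IL and not the species.

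In mammals, BHB is made in the liver from fatty acids during fasting and is burned by other tissues in place of glucose. It also acts there as a signal: it inhibits class I histone deacetylases, enzymes that remove acetyl marks from chromatin, and it binds a hydroxycarboxylic acid receptor on fat and immune cells. Caloric restriction raises its level in mammals, which is the background to giving it to fully fed animals. In a crustacean the fat body and gut carry much of the energy metabolism, and moulting and egg-laying run in a shared cycle. The design timed sampling within that cycle by taking females soon after laying.

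The count table names its gene models by protein accession or prediction ID. None of these IDs could be matched to a gene name (0 matches in the RefSeq gene table), so results are given by ID and no member of the ketone body, histone deacetylase, antioxidant, yolk or moulting pathways could be picked out. Reads of a whole body were counted, so fewer cells of a type and less RNA per cell cannot be told apart.

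The BHB libraries held 12901518, 9220730 and 13627714 counts, against 12198335, 14225214 and 12710960 in control. All 6 lay nearest to another IL library (root-mean-square log2 distance 0.574 to 0.754 over 4965 gene models) and farther from any GB library (1.35 to 1.46), as their clone label has it. Library numbers overlapped between the groups, with 6, 13 and 7 in BHB and 2, 11 and 12 in control.

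Animals of the same treatment differed from each other as much as animals of different treatments. Over the 4482 gene models tested in IL, the mean distance between BHB and control libraries was 0.784 (9 pairs, 0.585 to 1.15), against 0.792 among BHB libraries (3 pairs, 0.634 to 0.926) and 0.887 among control libraries (3 pairs, 0.734 to 1.08). BHB replicate 3 lay closer to control replicate 3 (0.592, with 393 gene models over 2-fold apart) than to BHB replicate 1 (0.817, 525 gene models) or BHB replicate 2 (0.926, 597). BHB replicate 2 lay closer to control replicate 1 (0.585) than to either other BHB female, and BHB replicate 1 was about as far from control replicate 1 (0.635) as from BHB replicate 2 (0.634).

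The first principal component of the 11 IL libraries held 39% of the variance of log2 CPM. BHB replicate 3 (38.0), CR replicate 1 (39.9) and control replicate 3 (28.1) lay at one end, and control replicate 2 (-29.0) lay at the other. The remaining BHB libraries scored 1.24 and -13.9 and the remaining control library -13.8, so the component divided each of the 3 groups and separated none of them from another.

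**Figure D1:**
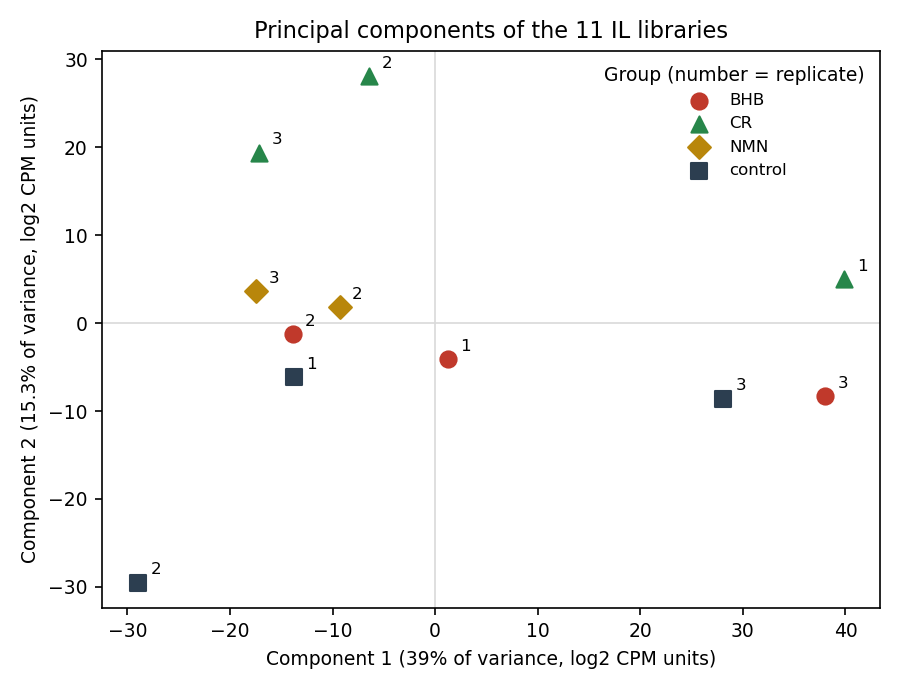
Principal components of log2 CPM over 4482 gene models in the 11 IL libraries (1 point per library, numbered by replicate; axes in log2 CPM units). BHB replicate 3, control replicate 3 and CR replicate 1 share the right-hand end at 28.1 or more, while the other BHB and control libraries score 1.24 or less.

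The gene models with the strongest loadings on this component were close to on or off between females of a group. KZR98782 had 32.5, 9.12 and 3468 CPM (counts per 1000000 counts of the library, with library sizes scaled by edgeR's TMM factors) in BHB replicates 1 to 3, and 23.2, 14.1 and 561.8 CPM in the control replicates. CR replicate 1 reached 11432 CPM, against 24.6 and 55.0 CPM in the other CR females, and the NMN females had 7.34 and 4.78 CPM. KZS06869 had 0.961, 0.434 and 196.9 CPM in BHB, 0.336, 1.11 and 11.8 CPM in control, and 996 CPM in CR replicate 1. The same 3 females were the high ones for both, which follows from choosing both gene models by this component. Each of these females came from a different treatment.

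At the opposite end, KZS06070 had 50.2, 108.4 and 0.381 CPM in BHB and 61.8, 142.3 and 2.56 CPM in control. KZS15640 had 20.2, 70.3 and 0.381 CPM in BHB and 39.8, 88.6 and 1.07 CPM in control. CR replicate 1 was again with the low females, at 0.935 and 0.595 CPM. These 4 IDs were chosen after their values were seen, to show the size of the differences between like-treated females. None passed the test of BHB against control (edgeR adjusted p = 0.999 each). What these females shared was not tested. The design text has females taken soon after laying, and the phase of each female in the cycle was not measured here.

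**Figure D2:**
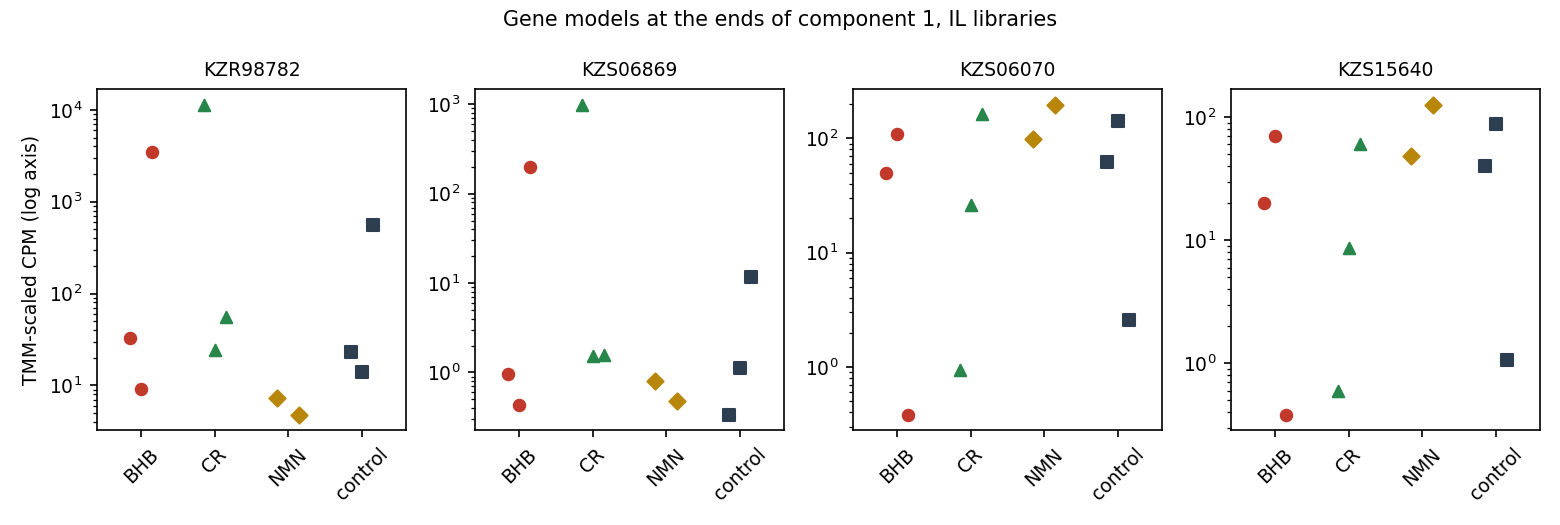
TMM-scaled CPM on a log axis of the 2 gene models at each end of the first component, per IL library (replicates run left to right within a group; the NMN females are replicates 2 and 3). BHB replicate 3 had 3468 CPM of KZR98782 and 0.381 CPM of KZS06070, the reverse of BHB replicate 2 with 9.12 and 108.4 CPM.

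BHB was set against control to ask whether the ketone body changes transcript levels in fully fed IL females. No gene model passed the threshold of 0.05 (0 of 4482, 0%, in edgeR's quasi-likelihood test with Benjamini-Hochberg adjustment). The smallest adjusted p was 0.999, and DESeq2 also called 0, with a smallest adjusted p of 0.194. At an unadjusted p under 0.05 there were 188 gene models (4.19% of those tested), 78 higher (1.74%) and 110 lower (2.45%) in BHB. This count moved with single females: it was 425 without control replicate 3 and 112 without BHB replicate 1, while the number called stayed at 0 without any of the 6. It was 123 in the 6 libraries alone, and 309 without both replicates 3, the females at one end of the first component.

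For scale, the same fit gave 682 gene models at an unadjusted p under 0.05 for CR against the same IL controls (15.2%, with 8.12% higher and 7.1% lower in CR) and 262 for NMN (5.85%, with 3.21% higher and 2.63% lower in NMN). It called 0 in both (0%). In that unadjusted count, BHB stood below both. The 3 comparisons share the control libraries, and the NMN group has 2 females, so the counts are not independent and no test compares them. CR libraries carry the numbers 18, 21 and 22 and NMN libraries 15 and 16, all above the controls at 2, 11 and 12. In these comparisons of CR and NMN, treatment and any step that followed library number cannot be told apart.

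Differences between BHB and control were small for most gene models. The median absolute log2 fold change was 0.158. The split into 2243 higher and 2239 lower in BHB says nothing of size, since TMM scaling centres the fold changes. The 95% interval of the fold change lay within 2-fold in either direction for 2790 gene models (62.2%), and within 1.5-fold for 1847. A p that misses the threshold does not show equal levels, and for the other gene models the interval was not held within 2-fold. Precision differed by abundance: the interval was inside 2-fold for 1083 of 1199 gene models at 100 to 1000 CPM (90.3%), for 1118 of 1342 at 10 to 100 CPM (83.3%), and for 453 of 1762 under 10 CPM (25.7%). Among the 179 gene models at 1000 CPM or more it was inside for 136 (76%).

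**Figure D3:**
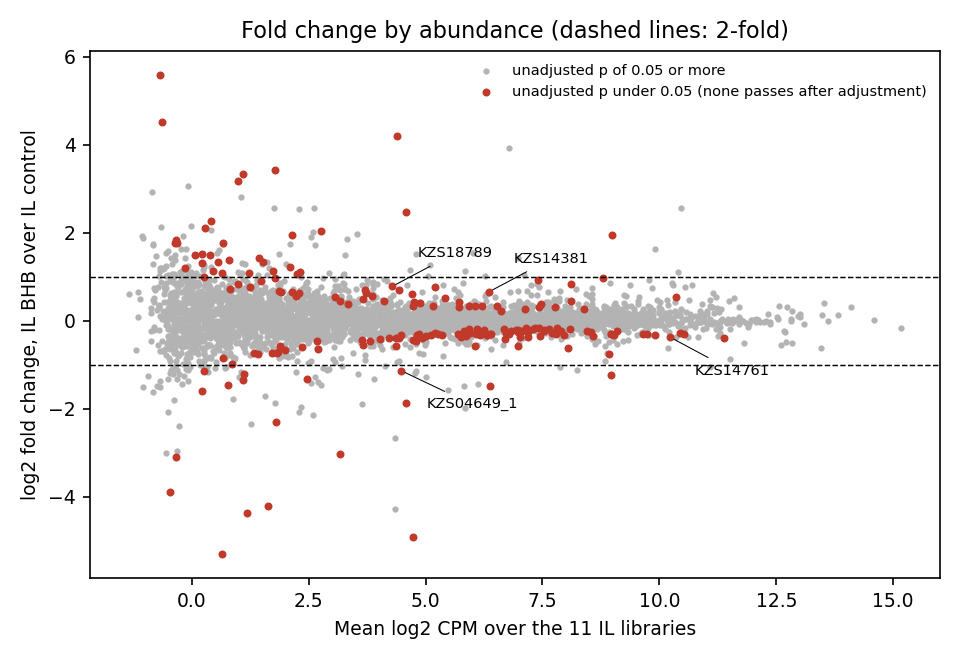
The log2 fold change of IL BHB over IL control against mean log2 CPM for the 4482 gene models (1 point each; dashed lines mark 2-fold). The 188 gene models with an unadjusted p under 0.05 are red, and the 4 with the smallest p per direction by rule are named. Most points beyond the dashed lines lie at low abundance, with 171 of 211 under 10 CPM, against 1762 of all 4482.

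Changes of over 2-fold were measured in 211 gene models (4.71%), 126 higher (2.81%) and 85 lower (1.9%) in BHB. They were mostly weakly expressed, with 171 of the 211 under a mean of 10 CPM, against 1762 of all 4482. BHB and control libraries overlapped in 163 of the 211 and did not in 48. Over all 4482 gene models, 376 were without overlap (8.39%). In 92 of the 211 (43.6%) 1 female held over 50% of the summed CPM of the 6, against 118 of all 4482 gene models (2.63%). That female was BHB replicate 3 in 38 cases, control replicate 2 in 32 and BHB replicate 1 in 16.

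All 3 BHB females lay above all 3 control females for 151 gene models (3.37%) and below them for 225 (5.02%). These 376 make up 8.39% of those tested, and their median absolute log2 difference was 0.379. Without any difference between the groups, 3 against 3 females separate completely with a probability of 0.1. The share is not above that, so the 376 are not read as a response to BHB. At a mean log2 CPM of 1 or more, the largest difference upward was in KZS16911, with 14.4, 41.8 and 26.4 CPM in BHB and 10.2, 1.88 and 2.81 CPM in control (log2 fold change 2.47 ± 0.899 SE, edgeR adjusted p = 0.999). The largest downward was in KZS13424, with 38.3, 65.6 and 53.4 CPM in BHB and 142.7, 225.1 and 69.9 CPM in control (-1.48 ± 0.395, edgeR adjusted p = 0.999). Both IDs were picked after their values were seen, and in both the control females differed among themselves by over 2-fold.

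The 4 gene models with the smallest p by direction, none past the threshold, had BHB and control libraries that did not overlap. KZS18789 had 24.4, 21.9 and 17.9 CPM in BHB females, against 12.75, 11.7 and 13.04 CPM in control females. Every BHB female was above every control female, and the control values were close together (21.4 ± 3.28 in BHB and 12.5 ± 0.724 in control, SD, n = 3 each). The log2 fold change was 0.78 ± 0.164 (SE; edgeR adjusted p = 0.999). KZS14381 had 106.6, 97.4 and 88.1 CPM in BHB and 53.1, 57.6 and 74.6 CPM in control, again without overlap (97.3 ± 9.23 CPM in BHB and 61.8 ± 11.3 CPM in control; log2 fold change 0.66 ± 0.139, edgeR adjusted p = 0.999).

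In the other direction, KZS04649_1 had 15.6, 20.95 and 15.03 CPM in BHB and 57.9, 25.4 and 30.1 CPM in control. All BHB values were below all control values, and control replicate 1 stood well above the other controls. The log2 fold change was -1.14 ± 0.284 (SE; edgeR adjusted p = 0.999), and -0.69 without control replicate 1. The table lists its ID on 6 rows, so its reads may be split, and the row with the next highest counts had 41 reads over the BHB females and 117 over the controls. KZS14761 is far more abundant, with 1123, 1157 and 1057 CPM in BHB and 1475, 1530 and 1326 CPM in control (1112 ± 50.6 CPM in BHB and 1444 ± 105 CPM in control). Its log2 fold change was -0.38 ± 0.0942 (edgeR adjusted p = 0.999), the smallest of these 4 in size. Over all 20 alternatives tried, adjusted p ranged from 0.194 to 1 for KZS18789, KZS14381 and KZS14761 and from 0.262 to 1 for KZS04649_1.

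**Figure D4:**
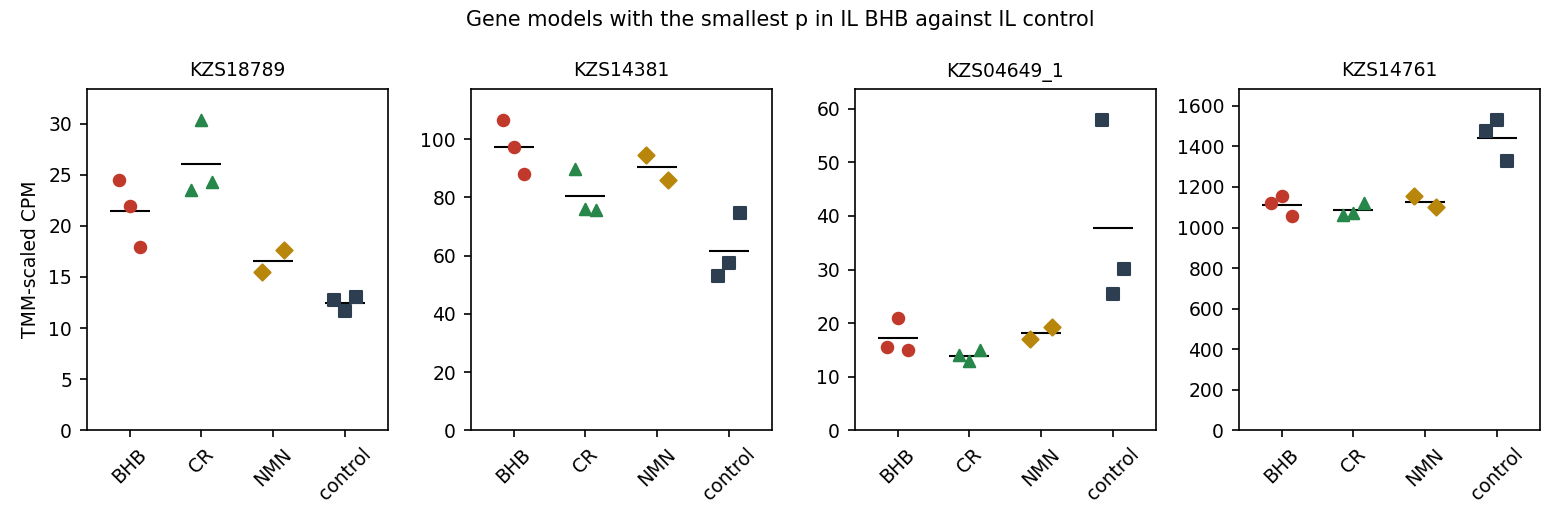
TMM-scaled CPM of KZS18789, KZS14381, KZS04649_1 and KZS14761 in each IL library by group (points are females, bars are group means, the axis starts at 0). In each panel the 3 BHB females lie on one side of the 3 controls, and the NMN and CR females lie on the same side of the control range as BHB.

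In these 4 gene models CR and NMN females also lay away from control, on the side of BHB. KZS14761 had 1064, 1072 and 1122 CPM in CR and 1157 and 1099 CPM in NMN, all below the lowest control at 1326 CPM. For KZS04649_1 the values were 14.03, 12.9 and 14.9 CPM in CR and 17.1 and 19.4 CPM in NMN, against a lowest control of 25.4 CPM. KZS18789 had 23.6, 30.3 and 24.3 CPM in CR and 15.5 and 17.6 CPM in NMN. For KZS14381, CR had 89.6, 76.1 and 75.8 CPM and NMN 94.5 and 86.1 CPM, all above the highest control at 74.6 CPM. Against control, the log2 fold changes of KZS18789 were 0.78 in BHB, 1.06 in CR and 0.41 in NMN, and those of KZS14761 were -0.38 in BHB, -0.41 in CR and -0.36 in NMN. None of the 4 passed against control in the other groups. The edgeR adjusted p ran from 0.0647 (KZS18789) to 0.231 (KZS14381) in CR, and from 0.7 to 0.846 in NMN. The 3 groups share the control females, and the 4 gene models were picked for their difference from these controls. Placement on 1 side is thus not independent between the groups, and what set it was not tested.

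Among the most abundant gene models, no difference between BHB and control passed the test. KZS03189, the most abundant, had 69594, 41487 and 40358 CPM in BHB and 85113, 56225 and 27674 CPM in control (log2 fold change -0.16 ± 0.638, edgeR adjusted p = 0.999). Control females differed by over 3-fold and enclosed all BHB females. KZS16921_1 averaged 30181 ± 2544 CPM in BHB and 29676 ± 5261 CPM in control (SD, n = 3 each), and KZS14409 averaged 11344 ± 1769 CPM in BHB and 11322 ± 2480 CPM in control. The means of KZS21034 were 19384 ± 5599 CPM in BHB and 17799 ± 1375 CPM in control. KZS07197 had 15780, 16342 and 17529 CPM in BHB and 9042, 13948 and 16842 CPM in control, a log2 fold change of 0.32 ± 0.208 (edgeR adjusted p = 0.999). In absolute terms the widest gap between the group means was that of KZS03189, followed by KZS20604 with 8351 ± 2551 CPM in BHB and 12940 ± 7883 CPM in control (log2 fold change -0.63 ± 0.487, edgeR adjusted p = 0.999).

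In CR females KZS03189 measured 6019, 8897 and 32655 CPM, and in NMN females 15294 and 21866 CPM. All 5 of these females were below all 3 BHB females. The log2 difference of BHB from CR was 1.67 ± 0.655 (edgeR adjusted p = 0.544) and that from NMN was 1.44 ± 0.75 (adjusted p = 0.999), so neither passed.

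Whole-library measures did not separate the groups either. The 10 most abundant rows took 19.5%, 17.2% and 15.9% of counts in BHB females and 20.7%, 16.6% and 15.7% in control females. The difference was -0.118 percentage points (two-sided exact permutation p = 1, where 0.1 is the smallest p that 3 against 3 allow). Gene models with at least 1 count numbered 6003 ± 195 in BHB and 6017 ± 100 in control. Over the 7 measures computed, the exact permutation p ranged from 0.4 to 1, and every adjusted p was 1. Rows without a protein accession took 0.739 ± 0.0112% of counts in BHB and 0.709 ± 0.0678% in control, and rows whose ID is repeated took 11.6 ± 0.533% in BHB and 11.6 ± 0.942% in control. By the strictest count, 0 rows had 10 or more counts in each BHB female and 0 counts in each control female, and 0 rows had the reverse. With any count in each BHB female and none in control there were 17 rows, with at most 39 reads in sum, and the reverse held for 21 rows, with at most 14 reads. A count of 0 in a library allows for up to 3 reads, by counting error only.

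By class of gene model, the share at an unadjusted p under 0.05 ran from 2.79% to 4.92%, against 4.19% of all tested. It was 2.79% at 1000 CPM or more (5 of 179, with 0 higher and 5 lower in BHB), 4.17% at 100 to 1000 CPM, 4.92% at 10 to 100 CPM and 3.8% under 10 CPM. It was 3.34% among the 359 without a protein accession and 3.5% among the 829 whose ID is on several rows. Of the 1199 gene models at 100 to 1000 CPM, 11 were higher and 39 lower in BHB at that p. Of the 1762 under 10 CPM, 43 were higher and 24 lower. The median log2 fold changes of these classes were -0.016 and 0.072. Genes of 1 animal are not independent and the splits were not tested, so no direction of response is read from them.

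The series sets BHB beside CR, and the direct comparison within IL asked how far fully fed BHB females lay from restricted ones. In edgeR 0 of 4482 gene models passed (0%), with 383 at an unadjusted p under 0.05 (8.55%), 174 higher (3.88%) and 209 lower (4.66%) in BHB, and a smallest adjusted p of 0.117. DESeq2 gave a p to 8213 rows and an adjusted p to fewer, a number not counted here. It called 46 rows, of which 27 were higher and 19 lower in BHB. In 44 of these 46 the BHB and CR females did not overlap, and all 46 had an unadjusted edgeR p under 0.05, with a median adjusted p of 0.366. DESeq2 picked the 46 from these same libraries, so neither count adds support to the calls. The share without overlap over all gene models was not counted for this comparison. The 2 tools thus differ in which side of the threshold they place these gene models. CR libraries carry the numbers 18, 21 and 22 and BHB libraries 6, 13 and 7, so diet and any step that followed library number cannot be told apart.

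KZS11463 had the smallest p, with 332.6, 218.4 and 249.4 CPM in BHB and 107.2, 73.2 and 88.8 CPM in CR (log2 difference 1.57 ± 0.212 SE, edgeR adjusted p = 0.117, DESeq2 adjusted p = 8.21e-08). Control females had 197.5, 305.3 and 215 CPM, so BHB and control females overlapped and the CR females stood apart below both. KZS17635 had 425.3, 349.9 and 448.2 CPM in BHB and 163.2, 216.9 and 256.8 CPM in CR (0.94 ± 0.156, edgeR adjusted p = 0.296, DESeq2 adjusted p = 0.000177). With no filter on low counts KZS17635 was called alone (edgeR adjusted p = 0.0469).

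In the other direction the smallest p were those of KZS06818 and KZS10621, neither past the threshold in edgeR and both called by DESeq2 (adjusted p = 0.00177 for KZS06818 and 0.00981 for KZS10621). KZS06818 had 282.8, 277.5 and 211.1 CPM in BHB and 416, 414.2 and 379 CPM in CR (log2 difference -0.65 ± 0.116, edgeR adjusted p = 0.316), with 236.3, 246 and 267.2 CPM in control. KZS10621 is a weakly expressed gene model, at 2.64, 2.93 and 2.82 CPM in BHB and 5.87, 5.93 and 7.64 CPM in CR (-1.21 ± 0.237, edgeR adjusted p = 0.316). For all 4 of these gene models the means of BHB and control were within 1 SD of the BHB libraries of each other, and the log2 fold changes of BHB over control were 0.16 for KZS11463, 0.07 for KZS17635, 0.04 for KZS06818 and -0.03 for KZS10621.

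Single CR females moved this comparison, and without CR replicate 2 the gene models at an unadjusted p under 0.05 numbered 241. Without CR replicate 1, the female at the end of the first component, edgeR called KZS13699_1, KZS15950 and KZS14379, all lower in BHB (log2 differences -2.08, -0.85 and -0.81, adjusted p = 0.046, 0.0494 and 0.0494). Without CR replicate 3 it called KZS21034, KZS18164 and KZS21012, all higher in BHB (2.05, 3.45 and 2.10, adjusted p = 0.0293 each). These 6 were named after their values were seen. KZS21034, 1 of the 5 most abundant gene models, had 25575, 17903 and 14675 CPM in BHB and 4496, 4896 and 13830 CPM in CR, the last being replicate 3.

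BHB and NMN were given in baths to females on the same full diet, and their comparison rests on 3 and 2 females. NMN libraries carry the numbers 15 and 16 and BHB libraries 6, 13 and 7, so compound and any step that followed library number cannot be told apart. In edgeR 0 of 4482 passed (0%), with 149 at an unadjusted p under 0.05 (3.32%), 61 higher (1.36%) and 88 lower (1.96%) in BHB, and a smallest adjusted p of 0.205. The unadjusted count ran from 84 without NMN replicate 2 and 97 without BHB replicate 1 to 195 without BHB replicate 2, and it was 237 in the 5 libraries alone. DESeq2 called 1, KZS20635 (adjusted p = 0.00207), which a fit of all 22 libraries in edgeR also called (adjusted p = 0.0293). KZS20635 had 101.3, 98.0 and 102.9 CPM in BHB and 156.5 and 172.9 CPM in NMN (log2 difference -0.71 ± 0.103 SE, edgeR adjusted p = 0.205 in the IL fit). Control females, at 120.4, 127.4 and 104.6 CPM, lay between the groups.

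The other gene models named for this comparison had an edgeR adjusted p of 0.999. KZS20190_2 had 31.9, 30.2 and 27.1 CPM in BHB and 63.0 and 60.02 CPM in NMN (log2 difference -1.05 ± 0.22), with 36.4, 25.1 and 28.5 CPM in control. KZS13212 had 281, 255.3 and 281.7 CPM in BHB and 179.4 and 177.3 CPM in NMN (0.61 ± 0.156), with 350, 247.8 and 263.5 CPM in control. BHB females lay with the controls in both and NMN females apart. For KZS13212 the CR females, at 150.1, 193.2 and 178.3 CPM, were also below all controls. For KZS20190_2 they had 26.5, 29.3 and 43.7 CPM, below both NMN females. The prediction maker-falcon_000021F-snap-gene-4.96 was weakly expressed, with 4.09, 3.80 and 3.13 CPM in BHB and 1.61 and 1.36 CPM in NMN (1.31 ± 0.35).

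Whether the response to BHB differed between the clones was tested in a fit of all 22 libraries, as the BHB effect in IL minus that in GB. No gene model passed (0 of 4965, 0%, in edgeR, and 0 in DESeq2), 377 had an unadjusted p under 0.05 (7.59%; 4.41% with the higher effect in IL and 3.18% with the lower), and the smallest adjusted p was 0.613 in edgeR and 0.0629 in DESeq2. That unadjusted count was 201 without IL BHB replicate 3, 232 without IL control replicate 2 and 185 without GB control replicate 2, and 579 without GB control replicate 3. Neither clone had a call of its own in that fit, with 193 of 4965 gene models at an unadjusted p under 0.05 in IL and 403 of 4965 in GB.

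The 2 clones were not seen to move together. Over 4965 gene models (a description, since genes of 1 animal are not independent), the BHB effects in IL and in GB had a Pearson r of -0.19 and a Spearman rho of -0.19. These comparisons share no library, though the clones shared the baths and the medium. The sign was the same in both clones for 1967 gene models (39.6%). Of the 193 with an unadjusted p under 0.05 in IL, 58 had that sign in GB as well (30.1%). Of the 17 of 4965 gene models with such a p in both clones, 3 had 1 sign. The 17 were not set against the number that unrelated lists would share, so no contrast between clones is read from them. These counts of signs take in gene models close to 0 in a clone, among them KZS04649_1 at 0 to 0.577 CPM in GB. With 3 females a side and a component that divides like-treated females, differences between a few animals enter these values, and their part was not tested.

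**Figure D5:**
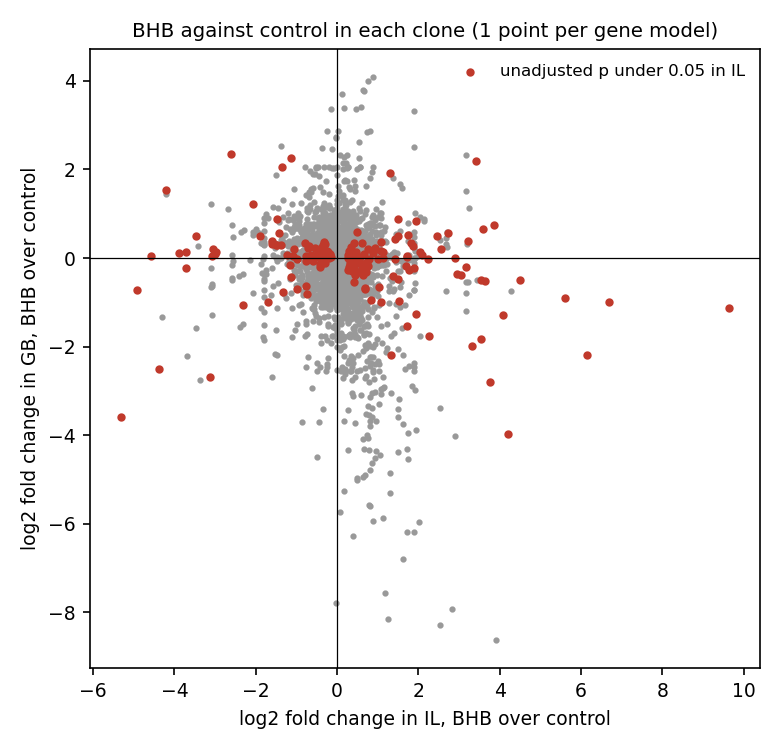
The log2 fold change of BHB over control in IL (horizontal axis) and in GB (vertical axis) for 4965 gene models, from the fit of all 22 libraries; red points have an unadjusted p under 0.05 in IL. The cloud is not drawn out along a rising diagonal (Pearson r -0.19), and 58 of the 193 red points have the same sign in both clones.

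The smallest p of the difference between clones was that of KZR99871_1, whose ID is on 2 rows. Scaled over all 22 libraries it had 254.2, 323.8 and 270.3 CPM in IL BHB against 132, 140.3 and 206.3 CPM in IL control, and 574.5, 551.1 and 721.1 CPM in GB BHB against 712.8, 1606 and 1238 CPM in GB control. Every IL BHB female was above every IL control. In GB, BHB replicate 3 overlapped control replicate 1 and the other BHB females were below all controls. The log2 fold changes were 0.83 ± 0.267 in IL and -0.95 ± 0.267 in GB, a difference of 1.77 ± 0.377 (SE, edgeR adjusted p = 0.613). It passed without GB control replicate 1 (2.09, edgeR adjusted p = 0.0451), and did not pass when any 1 of the other 11 females compared was left out. KZS18682 had the next smallest p upward (log2 fold change 0.41 in IL and -0.53 in GB, edgeR adjusted p of the difference = 0.613), and KZS12501 (-0.64 in IL and 1.56 in GB) and KZS21309 (-0.33 in IL and 1.13 in GB) had the smallest downward, at the same adjusted p.

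The gene models named for IL were followed in GB on the same scale. KZS18789 had 16.2, 20.3 and 15.3 CPM in GB BHB and 17.7, 14.6 and 20.1 CPM in GB control (log2 fold change -0.02 ± 0.168, against 0.77 ± 0.169 in IL). The groups overlapped fully in GB, and the difference between clones did not pass (0.79 ± 0.238, edgeR adjusted p = 0.613). KZS14761 had 1608, 1426 and 935.7 CPM in GB BHB and 1170, 1098 and 1346 CPM in GB control, with both extremes in BHB. KZS14381 had 90.6, 67.6 and 128.9 CPM in GB BHB and 110.1, 165.9 and 96.6 CPM in GB control. KZS04649_1 was at 0 to 0.577 CPM in all 6 GB females, so its fold in GB is not given.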

How the data were processed

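The authors deposited raw counts of reads on the sense strand, per the labels, as 1 table of 14657 rows (9831 distinct IDs, 1546 of them on more than 1 row, each row kept and numbered). Per the labels' protocols, libraries were made with a directional kit; per the submitters' processing notes, FastQC, Trim Galore 0.4.5, STAR and DESeq2 were used. No source used here names the counting tool, the genome build or the annotation. Groups follow the titles; L was read as CR by elimination. The members and gene models were chosen with earlier results of these data known, and functional gene lists had no members.

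The 11 IL libraries were fitted with 1 mean per group in edgeR 4.0.16 (R 4.3.3; filterByExpr with minimum count 10 and minimum total 15, TMM, robust quasi-likelihood F test, 7 residual degrees of freedom, Benjamini-Hochberg at 0.05). This kept 4482 rows with at least 99.91% of counts, and the coefficient of biological variation was 33.8%. The comparison between clones used all 22 libraries and 8 group means (4965 rows). SE come from the log2 fold change and F, and 95% intervals from SE and the test's degrees of freedom. CPM are TMM-scaled, and a prior count of 2 entered log2 CPM. The fit was also run on simulated counts, drawn independently for each gene model and without an axis shared between females. That run does not show what the fit would detect in these libraries. Gene models named are the 2 with the smallest p per direction and a mean log2 CPM of at least 1 (fewer than 5 passed), the 5 most abundant and the 2 with the largest gap in CPM; others are marked as chosen later.

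The design text describes 3 replicate cohorts per clone without tying libraries to them, so p-values measure the spread between these animals. All replicate pairs differed by more than sampling noise (chi-square over its degrees of freedom at least 91.7). Deviations of IL BHB and IL control libraries with the same number correlated at 0.18, 0.43 and 0.57. With CR the values were -0.21, 0.31 and -0.54, and with NMN -0.15 and -0.15. Between GB BHB and GB control they were -0.045, 0.019 and -0.083. The labels do not say whether the numbers mark pairs. The main fit left the numbers out, and a block of replicate number was among the alternatives. Alternatives were DESeq2 1.42.0, RLE factors, other filters, a threshold of 0.1, the replicate block, a fit that is not robust, summed IDs, removal of the 50 most abundant rows, other sets of libraries and each library left out; both replicates 3 left out, the block in 6 libraries and 1 surrogate variable (sva 3.50.0) were added after the data had been seen. Depth was 9220730 to 14225214 counts in the 6 libraries, and intervals were widest under 10 CPM. The age at sampling was read from the design text, taking a symbol-font character as plus-minus.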

Additional observations from a re-analysis of the deposited data

How the results depend on the processing

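The count of 0 for BHB against control held in all 20 alternatives, with 112 to 425 gene models at an unadjusted p under 0.05 in edgeR or DESeq2, and the 4 gene models with the smallest p kept their direction in each. With the replicate number as a block, 0 were called (145 at an unadjusted p under 0.05, and 264 with the block in the 6 libraries alone), and the block changed no other call. For BHB against CR the count was 46 with DESeq2 and 1 with no filter on low counts, and 0 to 3 when a library was left out. For BHB against NMN it was 1 with DESeq2 and 1 with all 22 libraries, and 0 when a library was left out; leaving out an NMN female leaves 1, assumed to vary like the other groups. The difference between clones had 0 to 1 calls when a library was left out. The difference in the share of the 10 most abundant rows, -0.118 percentage points, ran from -1.11 to 1.39 without single females and so changed sign. Gene models without overlap between BHB and control numbered 351 to 376. The cause of these shifts was not tested. Intervals were widest under 10 CPM, and the part of depth in this, beside the spread between females, was not tested.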
